A study of Homo sapiens with 12 samples.

Results

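The plasminogen activation system genes described here are PLAU, PLAT, PLAUR, SERPINE2 and SERPINB2, 5 of the 60651 genes in the count table, taken by symbol from their Ensembl identifiers and followed through all 6 arms of both cell lines. PLAU encodes the urokinase-type plasminogen activator (uPA) and PLAT the tissue-type activator (tPA), the serine proteases that cut plasminogen into plasmin. PLAUR encodes uPAR, the receptor that holds uPA at the cell surface. SERPINE2 (protease nexin-1) inhibits thrombin and both activators, and SERPINB2 (plasminogen activator inhibitor 2) inhibits uPA and, less efficiently, tPA. Plasmin dissolves fibrin and degrades matrix proteins, and in carcinomas the uPA system is known for its part in invasion.

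Cholangiocarcinoma is a cancer of the bile ducts, and both lines studied are established human lines labelled wild type. EGI-1 cells received DMSO vehicle, 500 nM decitabine, 200 nM talazoparib or both agents for 72 h, while HUCCT1 cells received DMSO vehicle or 1000 nM decitabine for 72 h. Each of the 6 arms had 2 libraries of total RNA. Decitabine is a nucleoside analog that traps and depletes DNA methyltransferases, and talazoparib inhibits and traps the DNA repair enzymes PARP1 and PARP2. Talazoparib libraries have 50, not 200, in their names. The lines differ in decitabine dose and in a tag of the library names (L3 for HUCCT1, L4 for EGI-1) whose meaning is not stated, so line, tag and dose cannot be told apart. The labels do not say that replicates were separate cultures, so p-values measure only the spread between these libraries. With so few libraries, the test takes the spread of each gene in part from the other genes.

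EGI-1 libraries held 23139065 to 33181930 counts and HUCCT1 libraries 32519985 to 34965627. All 5 genes passed the filter on low counts in both lines. The biliary epithelial markers KRT7, KRT19, KRT8, KRT18, EPCAM and SOX9 were above 1 CPM (counts scaled to library size) in every library, and the 4 hepatocyte markers were below it in every library. SOX17, a gene chosen to check the decitabine labels, had 24 and 22 counts in HUCCT1 vehicle and 799 and 1004 in HUCCT1 decitabine, but 0 counts in every EGI-1 library. All 3 genes chosen for this check were below 1 CPM in every EGI-1 library, so they do not check the labels there. Replicate 2 of the EGI-1 combination stood apart. PTPRC, the pan-leukocyte CD45 gene, had 381 counts in it against 2 in replicate 1, and CD3E of the T cell receptor complex had 148 against 0. Of 20 leukocyte genes listed after these values were seen, 14 were above 1 CPM in that library and 3 or 4 in each other EGI-1 library, with summed levels of 122 CPM against 33.6 to 64. Results of the combination are therefore also given without this library, and the part of these transcripts in them was not tested.

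Start-site sequences are shown first because decitabine acts on methylated CG dinucleotides. Their number differed widely between start-site windows, also between windows of the same gene. RefSeq (GRCh38.p14) gave 6 windows of 250 bases before a transcription start for 4 of the 5 genes, and none for PLAT. The 3 below run from 5′ to 3′ on the gene's strand and capitals mark each CG.

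PLAU, chr10:73910882-73911131, plus strand: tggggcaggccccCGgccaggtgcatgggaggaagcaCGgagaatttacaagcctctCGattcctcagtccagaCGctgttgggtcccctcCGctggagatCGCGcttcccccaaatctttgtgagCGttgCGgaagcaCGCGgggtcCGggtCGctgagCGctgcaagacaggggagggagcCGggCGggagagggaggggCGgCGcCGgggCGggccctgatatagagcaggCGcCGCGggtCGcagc
SERPINE2, chr2:224031479-224031728, minus strand: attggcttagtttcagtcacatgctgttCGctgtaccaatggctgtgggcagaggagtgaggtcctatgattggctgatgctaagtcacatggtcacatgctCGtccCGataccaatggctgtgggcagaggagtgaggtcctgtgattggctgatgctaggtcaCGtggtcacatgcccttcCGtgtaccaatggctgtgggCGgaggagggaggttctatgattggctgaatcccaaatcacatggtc
SERPINB2, chr18:63887455-63887704, plus strand: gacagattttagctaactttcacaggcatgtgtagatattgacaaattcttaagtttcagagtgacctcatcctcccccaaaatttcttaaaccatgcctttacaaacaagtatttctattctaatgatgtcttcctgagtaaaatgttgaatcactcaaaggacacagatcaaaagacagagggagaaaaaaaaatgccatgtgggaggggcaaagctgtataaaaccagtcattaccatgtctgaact

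The SERPINB2 window held 0 CG, against a median of 11 over all 35114 windows of this length. This PLAU window held 24 and this SERPINE2 window 6, while the other windows held 4 for PLAU, 28 for SERPINE2 and 13 for PLAUR. The SERPINE2 window with 28, not shown, is the one nearer the annotated start of the gene. For PLAU it is the window with 4, also not shown. On either strand, the AP-1 motif TGANTCA was found once in SERPINB2, as TGAATCA 102 to 96 bases before the start, and once in PLAUR, as TGAGTCA 186 to 180 bases before it. It was found in 6.57% of all windows. SERPINB2 also had TATAAA 30 to 25 bases before the start, present in 10.7% of windows. GC boxes (GGGCGG) were found in the PLAU and SERPINE2 windows shown and in 42.6% of all windows. A looser NF-kB-like pattern (GGG, any 5 bases, CC), which can overlap GC boxes, was found in PLAU, PLAUR and SERPINE2 and in 54.4% of windows, and the CRE motif TGACGTCA in none of the 6 and in 1.65% of windows. These are letter matches only, and DNA methylation was not measured here.

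In vehicle, PLAU was the most abundant of the 5 transcripts in EGI-1, and in HUCCT1 it shared that place with SERPINB2. Levels between genes are given as CPM per kilobase of annotated exon. In EGI-1 vehicle the mean level per length was 139 ± 4.35 (SD, n = 2) for PLAU, above 99.3% of the genes tested. SERPINB2 followed at 28.2 ± 0.812, PLAT at 26.5 ± 1.3, PLAUR at 18.4 ± 0.850 and SERPINE2 at 5.38 ± 0.218. SERPINB2 and PLAT are neighbours in this order, and their ranges of 27.7 to 28.8 and 25.6 to 27.4 came close without overlap. In HUCCT1 vehicle, SERPINB2 at 127 ± 6.22 and PLAU at 118 ± 6.81 overlapped, and PLAT was at 16.8 ± 1.40 and PLAUR at 12.8 ± 0.598. SERPINE2 was nearly silent in HUCCT1, with 17 and 19 counts and a level per length of 0.0663 ± 0.00535.

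All 5 genes differed between the vehicle arms, where 55.8% of 25096 genes were called, here meaning a quasi-likelihood test in edgeR over 12 libraries with an adjusted p below 0.05. In HUCCT1, SERPINB2 was 4.49-fold higher (log2 2.17, SE 0.18, adjusted p = 6.1e-06). SERPINE2 was far lower, at a log2 difference of -6.33 (SE 0.14, adjusted p = 2.8e-19). PLAU, PLAT and PLAUR differed by -0.23, -0.66 and -0.53 on the log2 scale. The PLAT and PLAU calls were each lost when some single libraries were left out, with adjusted p of up to 0.128 and 0.0970.

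**Figure D1:**
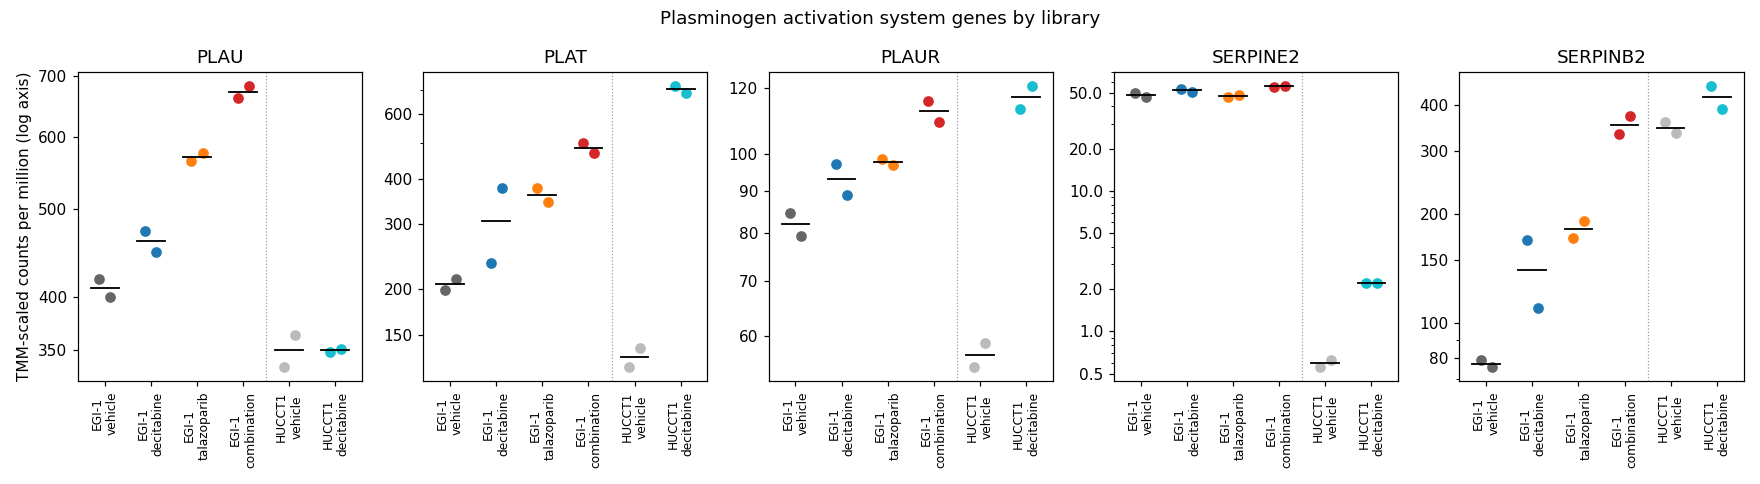
Level of each gene in all 12 libraries, in TMM-scaled CPM on a log axis of its own range for each gene. Points are libraries, bars are arm means and the dotted line separates EGI-1 from HUCCT1. The combination libraries are the highest of the 8 EGI-1 libraries for all 5 genes, and SERPINE2 is below 2.3 CPM in every HUCCT1 library.

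PLAU rose with talazoparib and with the combination in EGI-1 and did not move measurably with decitabine in HUCCT1. In EGI-1 it was at 418 and 400 CPM in vehicle, 472 and 449 in decitabine, 564 and 575 in talazoparib and 662 and 682 in the combination. The 4 EGI-1 arms did not overlap. Against vehicle the log2 fold change was 0.18 with decitabine (SE 0.053, adjusted p = 0.209), 0.48 with talazoparib (SE 0.053, adjusted p = 4.6e-05) and 0.71 with the combination (SE 0.053, adjusted p = 6.4e-08). The combination exceeded decitabine alone by 0.53 (adjusted p = 5.6e-06) and talazoparib alone by 0.23 (adjusted p = 0.0330). The last of these calls was kept only when a decitabine library was left out, and with any other library omitted its adjusted p rose to at most 0.255. In HUCCT1, PLAU was at 335 and 364 CPM in vehicle and 348 and 351 with decitabine, a log2 fold change of -0.01 with a 95% interval from -0.22 to 0.21. Its sign changed to 0.015 with upper-quartile scaling, so no direction can be given.

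PLAU overlaps C10orf55, a long non-coding RNA gene on the opposite strand, and whether counting used the strand is not stated. C10orf55 was at 6.53 and 6.61 CPM in EGI-1 vehicle and 11.4 and 11.6 in the combination, a log2 fold change of 0.80 (adjusted p = 0.0018). Over the 12 libraries it stood at 1.26% to 2.29% of the PLAU level. Without a stated strand setting, reads from the overlap cannot be told apart.

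PLAT had its largest rise in HUCCT1, where decitabine took it from 123 and 138 to 717 and 686 CPM. This was 5.36-fold (log2 2.42, SE 0.11, adjusted p = 5.2e-15), and omitting single HUCCT1 libraries gave 2.34 to 2.49. In EGI-1, PLAT was at 199 and 213 CPM in vehicle, 235 and 378 in decitabine, 377 and 346 in talazoparib and 502 and 470 in the combination. Every treated EGI-1 library exceeded both vehicle libraries, but the decitabine pair spanned from near vehicle to the level of talazoparib. The combination was 2.34-fold above vehicle (log2 1.23, SE 0.24, adjusted p = 0.0360). With 1 library of vehicle, talazoparib or the combination left out, the value stayed between 1.18 and 1.28 but the adjusted p was between 0.0805 and 0.171. Decitabine and talazoparib alone gave 0.58 (adjusted p = 0.598) and 0.81 (adjusted p = 0.221).

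SERPINB2, the inhibitor, had the largest fold rise of the 5 in the EGI-1 combination. It was at 79.0 and 75.8 CPM in vehicle, 170 and 110 in decitabine, 172 and 192 in talazoparib and 333 and 373 in the combination. No treated EGI-1 library overlapped vehicle, and the combination stood above all others. The combination was 4.53-fold above vehicle (log2 2.18, SE 0.23, adjusted p = 0.0047) and kept this call with each library left out, at 2.09 to 2.26. It exceeded decitabine alone by 1.32 (adjusted p = 0.0408) and talazoparib alone by 0.94 (adjusted p = 0.185). The call against decitabine was kept in 2 of 8 omissions of 1 library, with adjusted p of up to 0.150, reached without combination replicate 2. Talazoparib alone gave 1.24 (adjusted p = 0.0748) and decitabine alone 0.86 (adjusted p = 0.356). In HUCCT1 it was at 359 and 335 CPM in vehicle and 452 and 390 with decitabine, a log2 fold change of 0.27 (SE 0.11, adjusted p = 0.0619).

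The EGI-1 decitabine libraries disagreed in opposite directions for these 2 genes. Replicate 2 exceeded replicate 1 by 0.68 on the log2 scale for PLAT and was below it by -0.62 for SERPINB2. Among 7739 genes at 20 CPM or more in that arm, 0.478% had a larger gap than PLAT and 0.646% a larger gap than SERPINB2, while the gaps of PLAU, PLAUR and SERPINE2 were within 0.13. This arm also had the largest spread of the EGI-1 arms, with a chi-square per gene of 10.5 against 2.73 to 5.17. The library names fall into a lettered and a numbered series, and within them the log2 ratio of decitabine to vehicle was 0.93 and 0.14 for PLAT and 0.48 and 1.16 for SERPINB2. The ratio of the combination to vehicle was 1.24 and 1.23 for PLAT and 2.24 and 2.13 for SERPINB2. What the series stand for is not stated. The effect of decitabine alone therefore depends on which library is kept. With replicate 1 left out, PLAT gave 0.88 and SERPINB2 0.51. With replicate 2 left out, PLAT gave 0.20 and SERPINB2 1.14. Each of these fits holds 1 decitabine library and so no spread within that arm, and only the effect sizes are given.

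Because all 8 EGI-1 libraries share 1 estimate of each gene's spread, this pair also entered the tests of the other arms. A fit without both decitabine libraries was chosen after seeing these values. The pair was left out for its wide gaps in PLAT and SERPINB2, so a smaller spread of these genes follows from the choice. Both genes passed there in every remaining comparison, but these calls are therefore no test, and only their effect sizes are given. Talazoparib against vehicle gave 0.81 for PLAT and 1.24 for SERPINB2, as in the main fit. The combination against talazoparib gave 0.42 and 0.94, also as in the main fit. SERPINE2 passed there as well for the combination against vehicle, at 0.19 (adjusted p = 0.0307). More genes passed throughout in that fit. Of 22406 genes, it called 1706 for talazoparib against vehicle, against 923 in the main fit. For the combination it called 5332 against vehicle and 1011 against talazoparib, where the main fit called 4194 and 431.

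**Figure D2:**
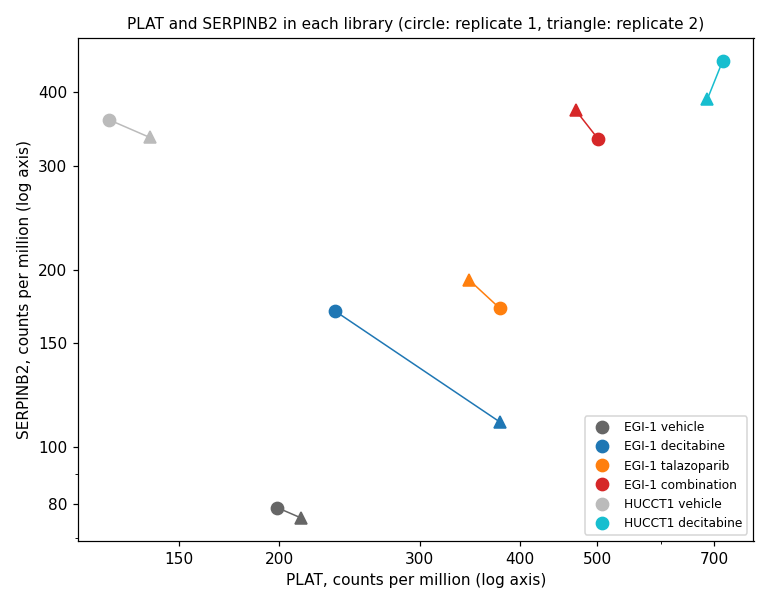
PLAT against SERPINB2 in CPM, both on log axes, with the 2 libraries of an arm joined by a line. The EGI-1 decitabine pair lies far apart, at 235 and 378 CPM of PLAT and 170 and 110 CPM of SERPINB2, while the other 5 pairs lie close together.

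PLAUR, the receptor gene, rose in both lines. In EGI-1 it was at 84.8 and 79.4 CPM in vehicle, 97.1 and 89.0 in decitabine, 98.4 and 96.8 in talazoparib and 116 and 109 in the combination. The combination libraries were above the rest, and the decitabine and talazoparib ranges overlapped. The combination was 1.36-fold above vehicle (log2 0.45, SE 0.068, adjusted p = 1.6e-04) and kept this call with each library left out, with adjusted p of up to 0.0137. Talazoparib alone gave 0.25 (adjusted p = 0.0454), a call that was lost in 6 of 8 omissions of 1 library, with adjusted p of up to 0.457. Decitabine alone gave 0.19 (adjusted p = 0.340). In HUCCT1, decitabine took PLAUR from 55.1 and 58.9 to 113 and 121 CPM, a 2.04-fold rise (log2 1.03, SE 0.11, adjusted p = 4.2e-08) with values of 0.98 to 1.07 when single libraries were omitted.

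SERPINE2 was expressed mainly in EGI-1, while its called rise was in HUCCT1. In EGI-1 it was at 49.6 and 46.8 CPM in vehicle, 53.0 and 50.7 in decitabine, 46.6 and 48.1 in talazoparib and 55.1 and 55.9 in the combination, so vehicle and talazoparib overlapped. The combination exceeded vehicle by 0.19 on the log2 scale (SE 0.070, adjusted p = 0.0614). In HUCCT1, SERPINE2 went from 17 and 19 counts to 71 and 66 with decitabine, or from 0.560 and 0.628 to 2.22 and 2.23 CPM. This 3.70-fold rise (log2 1.89, SE 0.33, adjusted p = 6.5e-05) passed with each library left out, yet the level reached was far below the lowest EGI-1 library at 46.6 CPM.

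**Figure D3:**
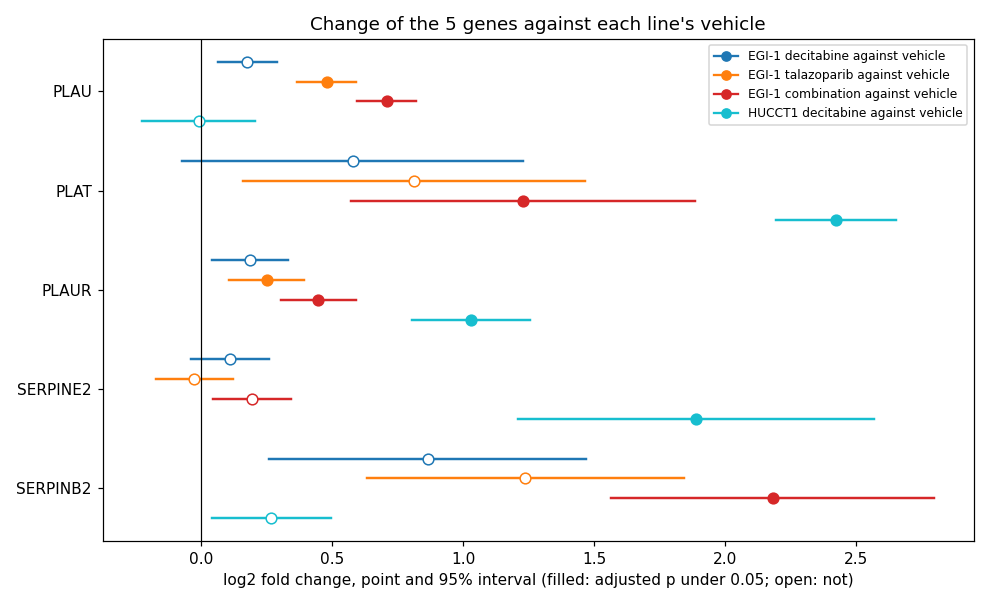
Log2 fold change of each gene against the vehicle of its own line, with the 95% interval from edgeR. Filled points have an adjusted p under 0.05. PLAU and SERPINB2 rise most in the EGI-1 combination (0.71 and 2.18), and PLAT, PLAUR and SERPINE2 in HUCCT1 with decitabine (2.42, 1.03 and 1.89).

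By arm, 4 of the 5 genes were called higher in the EGI-1 combination, where 18.7% of 22406 genes were called and 11.1% were called higher. Without combination replicate 2 this was 3 of 5, with PLAT lost at 1.27 (adjusted p = 0.128) and 11.2% of genes called. The values of PLAU, PLAUR and SERPINB2 were then 0.68, 0.49 and 2.09, against 0.71, 0.45 and 2.18 with it. Talazoparib alone changed 2 of 5 against a background of 4.12%. Decitabine alone changed 0 of 5 against 0.544%, although 3 had an unadjusted p under 0.05 and DESeq2 called 1, SERPINB2. The combination against decitabine gave 3 of 5 (background 7.68%), and against talazoparib 1 of 5 (background 1.92%). Without combination replicate 2 these were 1 and 0 of 5, as PLAUR (adjusted p = 0.0589) and SERPINB2 (adjusted p = 0.150) lost their calls against decitabine and PLAU (adjusted p = 0.255) against talazoparib. Over all genes, 801 and 136 were then called, against 1720 and 431. These comparisons share libraries and are not independent of each other. The 5 genes were chosen with earlier results of these data known, so counts above the background are description only.

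Both combination libraries were above the other 6 EGI-1 libraries for 5 of 5 genes, as were those of 13.7% of the genes tested. The arm means rose in the order vehicle, decitabine, talazoparib, combination for 4 of 5, an order shared by 13.1% of genes, and in SERPINE2 talazoparib was lowest. The combination was also set against both single changes added together on the log2 scale. For this departure, 0 of 5 were called by edgeR or by DESeq2, 0 had an unadjusted p under 0.05, and 0.161% of genes were called. The departures were 0.05 for PLAU (95% interval from -0.11 to 0.21), -0.16 for PLAT (-1.08 to 0.75), 0.01 for PLAUR (-0.19 to 0.21), 0.11 for SERPINE2 (-0.10 to 0.32) and 0.08 for SERPINB2 (-0.76 to 0.92). The departures of PLAT and SERPINB2 turned with the decitabine library kept. Without decitabine replicate 1, that of PLAT was -0.46 and that of SERPINB2 was 0.43. Without decitabine replicate 2 they were 0.22 and -0.20. Each of these values rests on 1 decitabine library.

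In HUCCT1, decitabine raised 3 of 5 genes against a background of 33.5% called and 19.6% called higher. The COL1A1 gene of fibroblast collagen rose in the same libraries, from 26.5 and 29.6 to 159 and 189 CPM, and the summed 5 fibroblast markers spanned 37.2 to 198 CPM. The 20 leukocyte genes summed to 19.1 and 22.4 CPM in vehicle and 54.0 and 58.7 with decitabine, where CORO1A went from 4.02 and 4.79 to 25.0 and 29.7 CPM, while PTPRC had 3 or 4 counts in each HUCCT1 library. The 4 endothelial markers spanned 4.23 to 27.1 CPM, and CDH5 went from 11 and 6 to 269 and 226 counts. In EGI-1 the same 4 endothelial markers spanned 19.8 to 29.8 CPM, and CORO1A was at 28.6 and 25.8 CPM in vehicle. The biliary keratin KRT8 went from 3995 and 4038 to 2187 and 2379 CPM in HUCCT1. There KRT7, KRT18 and KRT19 were also lower in both decitabine libraries than in either vehicle library. The part of these transcripts in the members' rise was not tested. In bulk RNA, a larger share of expressing cells and more RNA per cell cannot be told apart.

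No gene was called in opposite directions in the 2 lines. Under decitabine this could not occur, since the EGI-1 changes of all 5, though above 0, were uncalled. In HUCCT1 the changes of 4 were above 0. Median changes over all genes tested were 0.003 in EGI-1 and 0.002 in HUCCT1. The difference of the decitabine effects, HUCCT1 minus EGI-1, was called for PLAT, PLAUR and SERPINE2, at 1.86, 0.86 and 1.79 on the log2 scale, where 15.9% of genes were called. For PLAU it was -0.17 (95% interval from -0.37 to 0.03) and for SERPINB2 -0.58 (-1.14 to -0.01, adjusted p = 0.170). Without EGI-1 decitabine replicate 2 the SERPINB2 difference was -0.86, a value that rests on 1 EGI-1 decitabine library. The dose was 500 nM in EGI-1 and 1000 nM in HUCCT1, so these are differences between line and dose together.

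**Figure D4:**
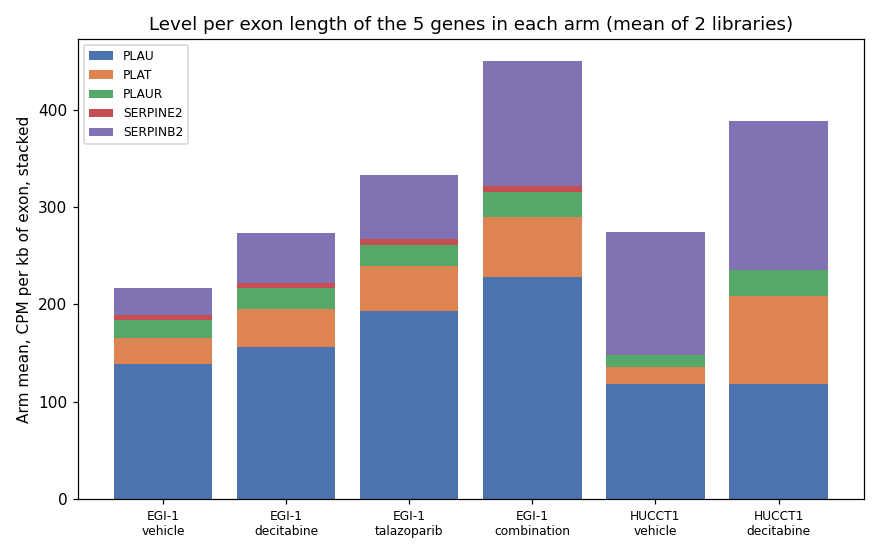
Mean level per exon length (CPM per kilobase) of the 5 genes, stacked for each arm. PLAU makes up 63.8% of the sum in EGI-1 vehicle and 50.6% in the combination, SERPINB2 rises from 13.0% to 28.6% there, and in HUCCT1 the share of PLAT goes from 6.10% to 23.2% with decitabine.

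The balance of activator and inhibitor transcripts moved differently in the EGI-1 combination and in HUCCT1 with decitabine. These arms differ in treatment as well as line. Per length, PLAU made up 63.8% of the summed level of the 5 genes in EGI-1 vehicle and 50.6% in the combination, while SERPINB2 went from 13.0% to 28.6%. PLAT changed little in share, from 12.2% to 13.9%. With decitabine alone in EGI-1, PLAU was at 57.1%, PLAT at 14.4% and SERPINB2 at 18.7%. In HUCCT1, decitabine took PLAT from 6.10% to 23.2%, while PLAU went from 43.1% to 30.5% and SERPINB2 from 46.1% to 39.5%. With decitabine alone, the PLAU share fell in both lines, and the SERPINB2 share rose in EGI-1 and fell in HUCCT1. The PLAT share rose in HUCCT1. In EGI-1 it rose in the arm means only through replicate 2, where PLAT was at 48.6 CPM per kilobase against 30.3 in replicate 1. Within replicate 1 the PLAT share was not above that of vehicle. These are shares of arm means, with no test, and the EGI-1 decitabine libraries disagreed for PLAT and SERPINB2.

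Across all 12 libraries, with each line centred on its vehicle, PLAU followed SERPINB2 (Pearson r = 0.964) and PLAT followed PLAUR (r = 0.961) and SERPINE2 (r = 0.872). PLAU and PLAT had r = 0.152. Over the 8 EGI-1 libraries alone, PLAU still followed SERPINB2 (r = 0.967) and PLAT followed PLAUR (r = 0.825), but these groups did not separate. There r was 0.873 for PLAU and PLAT, 0.943 for PLAU and PLAUR, 0.973 for PLAUR and SERPINB2 and 0.484 for PLAT and SERPINE2. The points share lines and arms, so r describes the arm pattern. Of 19932 genes, the closest to PLAU were CCN1 (r = 0.988), MITF (0.984) and ABL2 (0.983). CCN1 gave 0.75 in the EGI-1 combination and 0.01 in HUCCT1 with decitabine on the log2 scale. Closest to SERPINB2 were PSMD2 (0.987), TUBA4A (0.985) and ASPHD1 (0.984). Closest to PLAT were ACKR2 (0.993), SLC7A7 (0.990) and SLC35E1 (0.989), and closest to PLAUR were RAP1GAP2 (0.996), ZPR1 (0.994) and RND1 (0.992). POU2F2 (0.996), COL4A2 (0.996) and the gene ENSG00000112096.19 (0.995), for which no symbol was found, were closest to SERPINE2.

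PLG, the plasminogen gene that these activators act on, had 0 counts in every library of both lines, and 3 counts would be 0.0859 to 0.123 CPM. For the counts of other listed genes, 11.1% of all genes tested were called higher and 7.61% lower in the EGI-1 combination, and 19.6% higher and 13.9% lower in HUCCT1 with decitabine. The lists were chosen with earlier results of these data known, so counts above these shares are description only. Among the 9 listed proteases and activating enzymes, 6 were tested in EGI-1, and 2 rose and 1 fell in the combination, where 18.7% of all genes were called. CTSB (cathepsin B, which can activate pro-uPA) went from 324 and 321 to 465 and 492 CPM, a log2 fold change of 0.56, and rose by 0.34 in HUCCT1. TMPRSS4, a membrane serine protease, fell by 0.50 in EGI-1. HPN (hepsin) rose from 5 counts in each vehicle library to 14 and 29, and the call was lost without combination replicate 2 (adjusted p = 0.135). In HUCCT1, 1 of 5 tested was called, against 33.5% of genes.

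Among 11 other inhibitors, 2 of 6 tested rose in the EGI-1 combination, against 11.1% of all genes, and none fell. SPINT1, which blocks membrane serine proteases, went from 237 and 242 to 370 and 338 CPM (log2 0.55), and rose by a like 0.57 in HUCCT1 with decitabine. SERPING1 (C1 inhibitor) had 3 counts in each EGI-1 vehicle library and 12 and 34 in the combination, and lost its call without combination replicate 2 (adjusted p = 0.0768). In HUCCT1, 3 of 6 rose and 2 fell, where 33.5% of genes were called. TFPI2, a Kunitz inhibitor of plasmin, went from 194 and 198 counts to 1207 and 1316 (log2 2.66, adjusted p = 7.9e-14), and had at most 3 counts in any EGI-1 library. SERPINA5 rose by 1.62, and the protease-trapping PZP and A2M fell by 2.54 and 0.49.

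Of 5 plasminogen-binding genes, 3 fell in the EGI-1 combination and none rose, with and without combination replicate 2, while 7.61% of all genes were called lower in the combination. HMGB1, S100A10 and ENO1 fell by 0.36, 0.28 and 0.27 on the log2 scale. S100A10 forms a plasminogen receptor with annexin A2, whose gene ANXA2 was at 1067 and 1029 CPM in vehicle and 1051 and 1066 in the combination. In HUCCT1, HMGB1 fell by 0.29.

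Of 16 genes for uPAR partners and receptors that clear activator complexes, 15 were tested in EGI-1, and 6 rose and 1 fell in the combination, against 11.1% and 7.61% of all genes. LRP1, which internalises complexes of activator and inhibitor, went from 16.8 and 14.3 to 29.1 and 27.7 CPM (log2 0.86). ITGB3, LRP2 and MRC2 rose by 1.63, 1.64 and 1.36 from 5 to 22 counts in vehicle, and VTN (vitronectin) fell by 1.10. The LRP2 and VTN calls were lost without combination replicate 2. In HUCCT1, 14 were tested, and LYPD3 (2.05), MRC2 (0.88) and the integrin gene ITGA5 (0.79) rose while ITGA3, ITGB1 and ITGB5 fell by 0.76, 0.67 and 0.40. LYPD3 and ITGA5 were also among the genes that rose in the EGI-1 combination, by 0.69 and 0.86. Without its replicate 2 these values were 0.66 and 0.83.

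Of 10 genes for proteins that plasmin cuts or activates, 5 were tested in each line. MMP1, an interstitial collagenase, rose in both, from 1.35 and 1.33 to 6.57 and 6.68 CPM in the EGI-1 combination and from 53.5 and 45.8 to 158 and 145 CPM in HUCCT1. MMP9 was called higher in both at low counts, 10 and 5 to 20 and 20 in EGI-1 and 3 and 2 to 11 and 21 in HUCCT1, and its EGI-1 call was lost without combination replicate 2. TGFB1, whose latent product plasmin can activate, rose by 0.51 in the EGI-1 combination and fell by 0.63 in HUCCT1 with decitabine. FN1 (fibronectin) rose by 1.41 in HUCCT1, from 383 and 380 to 1103 and 937 CPM. MST1 rose by 0.49 there.

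SERPINB2 belongs to the clade B serpins, intracellular-type inhibitors that lack a classical signal peptide, and 12 others were listed. In the EGI-1 combination 5 of 6 tested rose, against 11.1% of all genes. Without its replicate 2 it was 3 of 6, with 11.2% of genes called in either direction. SERPINB7 rose most, from 7.15 and 8.05 to 24.8 and 28.7 CPM (log2 1.81), followed by SERPINB9 (0.69) and SERPINB5 (0.57). SERPINB8 and SERPINB1 (0.35 and 0.23) were the calls lost. In HUCCT1, SERPINB7 rose by 1.49 and SERPINB10 by 1.53, while SERPINB12 had 0 and 2 counts in vehicle and 20 and 16 with decitabine. SERPINB6 and SERPINB5 fell by 0.40 and 0.33 there. Over all 6 lists, 43 of 63 genes were tested in each line, and 18 rose and 5 fell in the EGI-1 combination (53.5% called, against 18.7% of all genes). Without its replicate 2, 12 rose and 4 fell, with 11.2% of all genes called. In HUCCT1, 14 rose and 9 fell (53.5% called, against 33.5%). Their median log2 fold changes were 0.23 and 0.17, against -0.02 and 0.00 over all genes tested. Because the lists were chosen with earlier results of these data known, none of these shares or medians is a test.

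**Figure D5:**
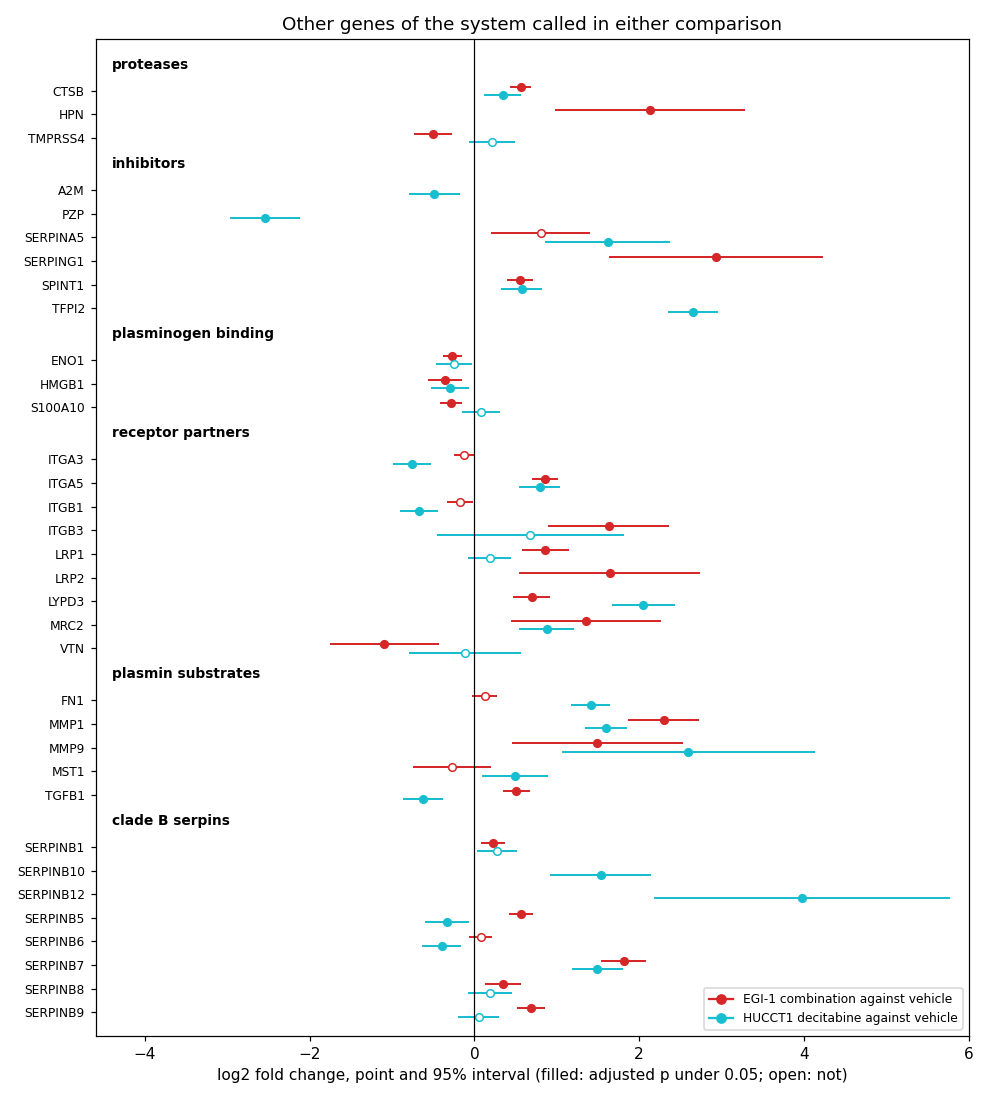
Log2 fold change and 95% interval of the other listed genes that were called in the EGI-1 combination or in HUCCT1 with decitabine, grouped by role. Filled points have an adjusted p under 0.05, and a gene without a point was not tested in that line. SPINT1, MMP1 and SERPINB7 lie above 0 in both, TGFB1 and SERPINB5 on opposite sides, and SERPING1 in EGI-1 and MMP9 and SERPINB12 in HUCCT1 rest on 3 counts or fewer in each vehicle library.

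The members lie on 5 chromosomes (GRCh38, GENCODE 44). SERPINB2 (ENSG00000197632.9, chr18:63871692-63903888) stands in a cluster of clade B genes, with SERPINB11 and SERPINB7 before it and SERPINB10 and HMSD after it. SERPINB7 rose with talazoparib alone as well, by 1.10 (adjusted p = 6.8e-05), and HMSD by 0.57 in the combination (adjusted p = 0.0237). SERPINB11 had too few counts to be tested in either line. ENSG00000289724, annotated on the same strand, overlaps the 3′ part of SERPINB2 and reaches SERPINB10, and it has no row in the count table used here. PLAT (ENSG00000104368.19) lies between AP3M2 and IKBKB on chromosome 8. AP3M2 and KAT6A beyond it were not called in either line, with 0.09 and -0.16 in the EGI-1 combination. IKBKB fell by 0.40 in the EGI-1 combination, and POLB beyond it rose by 0.73 in HUCCT1 with decitabine.

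PLAU (ENSG00000122861.16, chr10:73909177-73917496) has NDST2 and CAMK2G before it and VCL and AP3M1 after it. CAMK2G fell by 0.25 in the EGI-1 combination and by 0.80 in HUCCT1 with decitabine, VCL rose by 0.27 in the combination, and NDST2 and AP3M1 were not called. PLAUR (ENSG00000011422.12, chr19:43646095-43670547) has CADM4 and ZNF428 on one side and IRGC, which was not tested, and SMG9 on the other. CADM4 rose by 0.62 in the combination and by 0.64 in HUCCT1, and ZNF428 by 0.49 in the combination, where its adjusted p was just under the threshold. SERPINE2 (ENSG00000135919.14, chr2:223975045-224039318) has WDFY1, MRPL44, CUL3 and the untested FAM124B as neighbours. CUL3 fell by 0.24 in the combination, and WDFY1 and MRPL44 were not called in either line.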

How the data were processed

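Total RNA of EGI-1 (4 arms) and HUCCT1 (2 arms) was sequenced, with 2 libraries per arm. The deposited table holds whole-number counts per gene, made by the authors and not normalized. The submitters' processing notes name fastp, Trim Galore, HISAT2, featureCounts and GRCh38, whereas the study's methods, which describe EGI-1 only, name fastp, STAR and RSEM. Annotation release, use of strand and handling of multi-mapped reads are not given in the sources used here, so reads shared by overlapping genes could count for either.

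Symbols, positions and exon lengths were taken from GENCODE 44 for 60437 of 60651 identifiers. Arms were compared with edgeR 4.0.16 (R 4.3.3) by its robust quasi-likelihood test on TMM-scaled counts after filterByExpr (minimum count 10, total 15), with Benjamini-Hochberg adjustment over all genes tested and a threshold of 0.05. All 8 EGI-1 libraries entered 1 fit, the 4 HUCCT1 libraries another, and all 12 entered the comparisons between lines. CPM use TMM factors of the 12 libraries. The method was tested on simulated counts, drawn with the spread (dispersion) typical of genes at a like level. For PLAT and SERPINB2 in EGI-1 this was 0.0029, below their own 0.0274 and 0.0236. The simulation therefore did not cover the spread of these 2 genes. Limits for counts of 0 take 3 counts and, like the depths, cover counting error only. With 2 libraries per arm an exact two-sided permutation test cannot go below p = 0.333, so the model's test was used.

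The members and gene lists were chosen with earlier results of these data known. Named list genes are the called members with the largest change, up to 5 per list and comparison, and ANXA2, ITGB5 and the further neighbours were named after their values were seen. Alternatives were other scaling, no filter, a non-robust fit, DESeq2 1.42.0, replicate blocks, smaller fits and leaving out each library. A fit that leaves out a library holds 1 library in that arm. Its p-values then hold no spread within that arm and take it from the other arms. Columns of the table that belong to no sample here numbered 0.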

Additional observations from a re-analysis of the deposited data

Results flagged for a closer look

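The decitabine effect differed between the lines for 3 genes by the interaction test of edgeR over all 12 libraries. HUCCT1 minus EGI-1, the difference was 1.86 for PLAT on the log2 scale (SE 0.27, adjusted p = 0.00245), 0.86 for PLAUR (SE 0.11, adjusted p = 1.0e-05) and 1.79 for SERPINE2 (SE 0.22, adjusted p = 4.3e-06). With each of the 12 libraries left out in turn the calls were kept, at 1.56 to 2.24, 0.80 to 0.92 and 1.71 to 1.88. The decitabine dose differs with the line and cannot be told apart from it.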

How the results depend on the processing

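The combination against vehicle in EGI-1 and decitabine in HUCCT1 kept their counts of called genes among the 5 within 1.5 times under every alternative run, with 3 to 5 and 3 to 4 called when single libraries were left out. The other EGI-1 comparisons moved. Talazoparib against vehicle, with 2 called, gave 1 with upper-quartile scaling and 4 with DESeq2, with only the 4 libraries of both arms, or without both decitabine libraries (the last chosen after seeing the data). The combination against talazoparib, with 1, gave 2 with a non-robust fit or DESeq2 and 3 with only 4 libraries or without both decitabine libraries. Without both decitabine libraries, the added calls of PLAT and SERPINB2 follow from the choice of libraries and are no test. The combination against decitabine, with 3, gave 1 with only 4 libraries. Decitabine against vehicle, with 0, gave 1 with a non-robust fit or DESeq2. Leaving out single libraries gave 0 to 2 for decitabine, 1 to 4 for talazoparib, 1 to 4 and 0 to 3 for the combination against decitabine and talazoparib, 0 to 1 for the departure from the sum, 3 to 4 for the difference of decitabine effects and 3 to 5 between the vehicle arms. Apart from the altered spread shown for the decitabine pair, the cause was not tested.

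The replicate numbers did not pair the samples, since deviations of same-numbered libraries correlated at -0.068 to 0.057 in EGI-1 and 0.11 in HUCCT1. With a replicate block by title number, talazoparib against vehicle gave 1 called and the combination against talazoparib 0. With a block by library name series these were 1 and 0, and the combination against decitabine gave 1. Over all genes, the block by title number took decitabine against vehicle from 122 to 60 calls and the combination against talazoparib from 431 to 249, and the block by name series took the former to 75.

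Some values changed sign, and none of these was called after the change. The PLAUR departure was -0.0016 with no filter and -0.042, -0.023, -0.056 and -0.0045 without vehicle replicate 1, combination replicate 1, decitabine replicate 2 or talazoparib replicate 2, with a highest value of 0.075 without decitabine replicate 1. Without decitabine replicate 2 the departure was 0.22 for PLAT and -0.20 for SERPINB2, and without decitabine replicate 1 it was -0.46 and 0.43. SERPINE2 gave 0.019 for talazoparib without vehicle replicate 1 and -0.067 without vehicle replicate 2. PLAU in HUCCT1 gave 0.015 with upper-quartile scaling, 0.0012 with all 12 libraries and 0.035 and -0.065 without HUCCT1 vehicle replicate 2 and 1.

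Counts over all genes moved by more than 1.5 times as well. With no filter, decitabine against vehicle gave 335, the combination against talazoparib 897 and the departure 71 against 36. With only 4 libraries, decitabine gave 46, talazoparib 1874 against 923, and the combination 1039 against 1720 over decitabine and 714 over talazoparib. Without both decitabine libraries, talazoparib gave 1706 and the combination against talazoparib 1011. Upper-quartile scaling split the combination calls into 2177 higher and 2244 lower, against 2489 and 1705. Leaving out single libraries gave 22 to 402 calls for decitabine, 257 to 1703 for talazoparib, 1938 to 5333 for the combination against vehicle (4194), 801 to 2556 against decitabine, 116 to 1017 against talazoparib, 26 to 89 for the departure and 2561 to 3846 for the difference of decitabine effects (4000).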
